A study of Mus musculus with 10 samples.

Results

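The endothelin system was followed through 7 genes in oesophageal tissue of mice exposed to the carcinogen 4-NQO. They encode the ligand precursors (Edn1, Edn2, Edn3), the receptors (Ednra, Ednrb) and the converting enzymes (Ece1, Ece2). The set was chosen by a measured value: it was drawn up around Edn1 because Edn1 was higher in Grhl3 KO in these same libraries. The difference in Edn1 is therefore given as a description and supports nothing further. All 7 genes were found by symbol among the 22740 protein-coding genes of the deposited count table, and 6 of them had enough counts to be tested.

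On GRCm38, Edn1 (ENSMUSG00000021367) lies at chr13:42301476-42307990, Edn2 (ENSMUSG00000028635) at chr4:120161206-120167360 and Edn3 (ENSMUSG00000027524) at chr2:174760619-174784042, all on the plus strand. Ednra (ENSMUSG00000031616) lies at chr8:77663031-77724464 and Ednrb (ENSMUSG00000022122) at chr14:103814625-103844402, both on the minus strand. Ece1 (ENSMUSG00000057530) lies at chr4:137862237-137965229 and Ece2 (ENSMUSG00000022842) at chr16:20629828-20646485, both on the plus strand.

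The 10 libraries came from 5 mice with Grhl3 knocked out (Grhl3 KO) and 5 wild types, all labelled C57BL/6 and all given 4-NQO (4-nitroquinoline 1-oxide), a DNA-damaging compound used to induce squamous tumours in the mouth and oesophagus. The Grhl3 KO libraries are labelled as tumour tissue of the oesophagus and the wild-type libraries only as oesophageal tissue, although the design text of the series calls the tissue of both tumours. As labelled, genotype and kind of tissue cannot be told apart. The series title speaks of conditional knockouts and the Grhl3 KO columns carry the word "L2Cre"; the promoter that drives the recombinase, the age of the mice and their sex are not stated by the labels.

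Endothelins are short peptides that constrict blood vessels and also act as growth and pigment-cell factors. Each is made as a long precursor, trimmed by furin-type proteases to an inactive big endothelin, and cut by an endothelin-converting enzyme to the active peptide. The peptide then binds one of a pair of G protein-coupled receptors. In skin, keratinocytes are themselves a source of endothelin-1, in addition to endothelial cells.

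The stretches that encode the active peptides are shown because the ligands, whose transcripts differed in level, are nearly alike there. Each was located in the GENCODE M21 transcript by the spacing of its 4 cysteines and its final tryptophan. It covers 21 residues (63 bases) and lies in exon 2 on the plus strand of GRCm38. The Edn1 stretch is at chr13:42303649-42303711, the Edn2 stretch at chr4:120161951-120162013 and the Edn3 stretch at chr2:174761749-174761811. Capitals mark the cysteine codons, whose disulfide bonds hold the peptide in its fold.
Edn1: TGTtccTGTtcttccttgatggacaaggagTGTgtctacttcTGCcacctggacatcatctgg
Edn2: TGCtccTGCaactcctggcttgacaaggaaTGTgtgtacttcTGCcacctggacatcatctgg
Edn3: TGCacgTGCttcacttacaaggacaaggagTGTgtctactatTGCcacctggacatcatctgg

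All 3 stretches end in the same 21 bases, which encode the tail of the peptide that the receptors require. Edn1 and Edn2 shared 53 of 63 bases and 18 of 21 residues. Edn3 shared 50 bases with Edn1 and 48 with Edn2, and 15 residues with each. At whole-transcript level, 0.0% of the longest Edn1, Edn2, Edn3, Ednrb and Ece1 transcripts matched another gene over 75 bases or more at 95% identity or above, so that reads of the ligands can be told apart.

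The converting enzymes are zinc metalloproteases, and the stretch around their zinc-binding motif is shown with the motif's codons in capitals and 5 residues on either side. It lies at chr4:137957157-137957201 in exon 17 of Ece1 and at chr16:20643875-20643919 in exon 16 of Ece2, both on the plus strand of GRCm38.
Ece1: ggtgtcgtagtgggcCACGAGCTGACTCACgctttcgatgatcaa
Ece2: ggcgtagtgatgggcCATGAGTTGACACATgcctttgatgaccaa

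In this window the enzymes shared 14 of 15 residues but 34 of 45 bases. The Ece2 count carries an uncertainty of annotation. In GENCODE M21 the protein-coding gene Gm49333, a transcript read through from the neighbouring Eef1akmt4 locus, lies on the same strand and shares 57.5% of the exon bases of Ece2. Of the longest Ece2 transcript, 65.8% matched Gm49333 over 75 bases or more at 95% identity or above. No row for Gm49333 was used here. Whether shared reads were added to the Ece2 count or left out of it was not tested.

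Libraries held 15.3 to 32.9 M counts (M, the SI prefix mega). Levels are given as CPM, counts per M of library size after TMM scaling. Grhl3 itself was at 135 to 317 CPM over the 5 Grhl3 KO mice and at 109 to 363 CPM over the 5 wild-type mice, so the whole-gene count did not separate the genotypes. The summed level of 4 Y-linked genes was 162 to 203 CPM over the 5 Grhl3 KO mice, against 154 CPM in wild type 1028, 177 CPM in wild type 1048 and 72.3 CPM in wild type 1561. It was 0.0527 CPM in wild type 1528 and 0.0539 CPM in wild type 1555. Libraries with almost no Y-linked counts were thus found in wild type only, so that the genotypes are not balanced in this respect. Wild type 1561 lay between these libraries and all others in each of the 4 genes, for a reason that was not tested. Fits without 1528 and 1555 keep wild type 1561. The wild-type libraries 1528, 1555 and 1561 have sample numbers from a different range than the other 7, whose meaning the labels leave unsaid. Results are therefore also given without them.

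Edn1, which encodes endothelin-1, stood at 17.6, 19.3, 10.9, 21.2 and 18.1 CPM in Grhl3 KO libraries 1026, 1027, 1035, 1036 and 1043. In wild-type libraries 1028, 1048, 1528, 1555 and 1561 it stood at 7.12, 6.37, 4.96, 3.61 and 5.98 CPM. The groups did not overlap: the lowest Grhl3 KO library, 1035, was above the highest wild-type library, 1028. Such a separation was seen for 0.787% of the 13731 genes tested with Grhl3 KO on top and for 0.568% with wild type on top, 1.35% together. The group means were 17.4 ± 3.88 CPM in Grhl3 KO mice, against 5.61 ± 1.36 CPM in wild-type mice (SD, n = 5 each), a 3.10-fold difference with 95% limits of 2.22 and 4.34. On the log2 scale the difference was 1.63 (SE 0.22). Behind these levels stood 67 to 602 counts per library.

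Within wild type, Edn1 was lowest in the libraries with almost no Y-linked counts, 1528 and 1555, and highest in 1028 and 1048, whose numbers (10xx) are like those of the Grhl3 KO mice. Without 1528 and 1555 the log2 difference was 1.42. Among the libraries numbered 10xx, 5 Grhl3 KO against 2 wild type, it was 1.37. All libraries of the other number series are wild type. With 1 library left out at a time, the difference ran from 1.5003 (without wild type 1555) to 1.76 (without Grhl3 KO 1035).

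**Figure D1:**
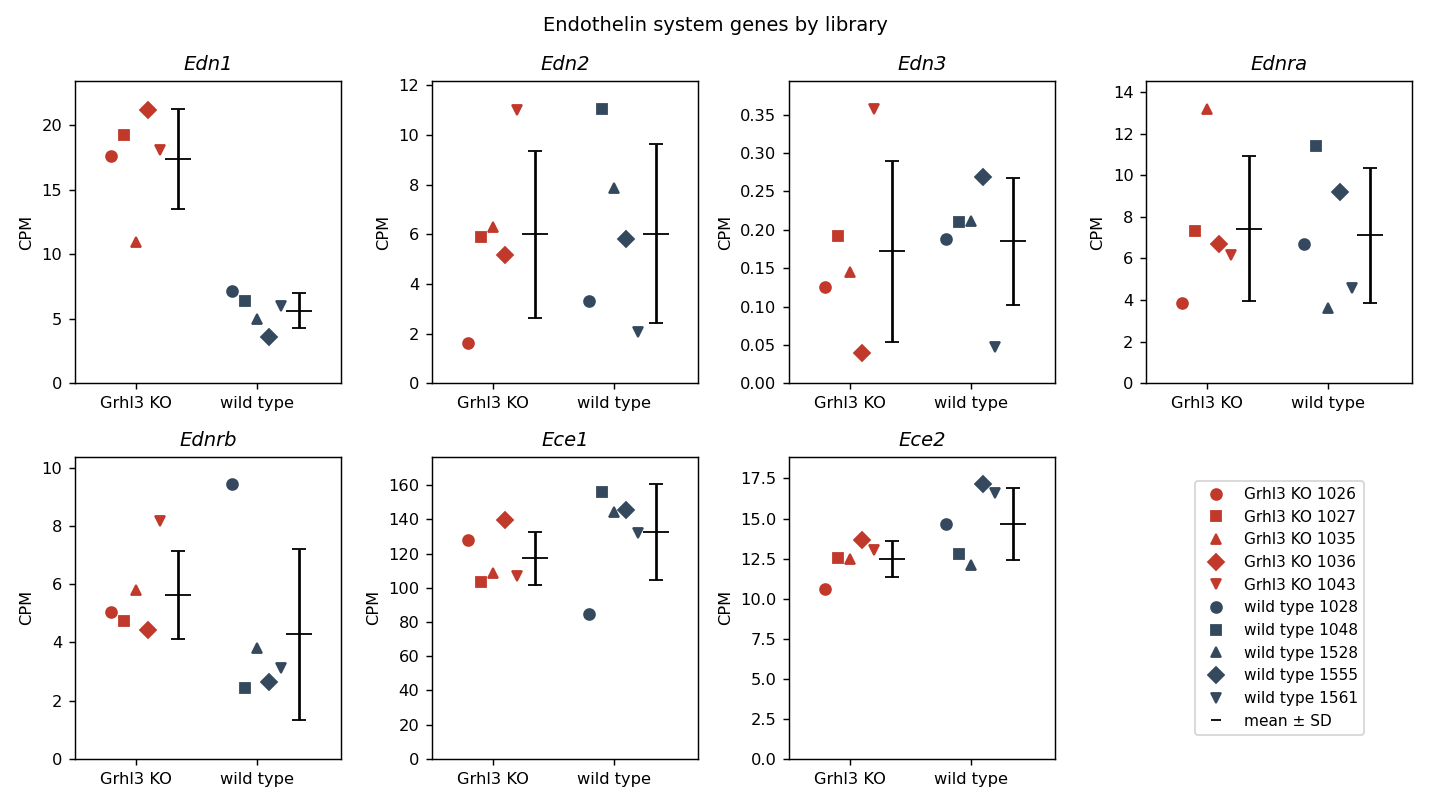
Level of each endothelin gene in CPM (linear axis from 0) in the 5 Grhl3 KO libraries, left, and the 5 wild-type libraries, right, with the mean and SD of each group. Edn1 shows 2 separate groups, 10.9 to 21.2 CPM in Grhl3 KO mice, against 3.61 to 7.12 CPM in wild-type mice, while the groups of the other genes overlap.

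Edn2, the ligand that differs least from endothelin-1, did not pass the test. It stood at 1.64, 5.89, 6.27, 5.16 and 10.99 CPM in Grhl3 KO libraries 1026, 1027, 1035, 1036 and 1043. Wild-type mice 1028, 1048, 1528, 1555 and 1561 had 3.30, 11.1, 7.86, 5.82 and 2.07 CPM. Both groups spanned nearly the same range, and the means were 5.99 ± 3.34 CPM in Grhl3 KO mice, against 6.02 ± 3.60 CPM in wild-type mice (SD, n = 5 each). The log2 fold change was −0.0057 (SE 0.51, 95% limits −1.12 to 1.11) and edgeR gave an adjusted p of 0.999 (quasi-likelihood test). These limits take in a difference of 2-fold in either direction. Among libraries numbered 10xx the log2 fold change of Edn2 was −0.26.

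Edn3 encodes endothelin-3, the ligand of Ednrb in the neural crest cells that form pigment cells and gut neurons. It held 1 to 6 counts per library, 20 in all in the Grhl3 KO libraries and 18 in the wild-type libraries, and was too low to be tested. Its level was 0.0394 to 0.358 CPM in Grhl3 KO mice, against 0.0471 to 0.269 CPM in wild-type mice. No difference in Edn3 was detectable at this depth.

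Because Edn1 differed between the groups and Edn2 did not pass the test, the make-up of the ligand transcripts is given next, on the scale of CPM per kb of exon. Edn1 made up 87.8%, 68.9%, 54.2%, 73.7% and 52.7% of the summed ligand level in Grhl3 KO libraries 1026, 1027, 1035, 1036 and 1043. In wild-type libraries 1028, 1048, 1528, 1555 and 1561 the share was 59.1%, 28.1%, 29.9%, 29.4% and 66.2%. Edn1 exceeded Edn2 in 5 of 5 Grhl3 KO libraries and in 2 of 5 wild-type libraries. The ranges of the share overlapped, since wild type 1028 and 1561 lay above Grhl3 KO 1035 and 1043. As the share contains Edn1, it is a description only.

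Ranked by level per kb of exon averaged over all 10 libraries, Ece1 was the most abundant of the 7 genes and Edn3 the least. Ece1 averaged 22.1 ± 2.94 CPM per kb in Grhl3 KO and 24.98 ± 5.31 CPM per kb in wild-type mice (SD, n = 5 each), above every other member in all 10 libraries. Edn1 averaged 8.14 ± 1.82 CPM per kb in Grhl3 KO and 2.62 ± 0.637 CPM per kb in wild-type mice. Its place above Edn2 and Ece2 rests on the Grhl3 KO libraries, since its wild-type mean lay below those of both. Edn2 averaged 4.10 ± 2.29 and 4.12 ± 2.46 CPM per kb in Grhl3 KO and wild type. Ece2, with the uncertainty of annotation named above, averaged 2.44 ± 0.221 and 2.87 ± 0.437 CPM per kb in Grhl3 KO and wild type. Edn2 exceeded Ece2 in 4 of 5 Grhl3 KO and 3 of 5 wild-type libraries, so that the order of these neighbours was not beyond their spread.

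The receptors stood lower than the enzymes on this scale, with Ece2 above Ednra in all 10 libraries. Ednra averaged 1.36 ± 0.636 CPM per kb in Grhl3 KO and 1.30 ± 0.590 in wild type. Ednrb averaged 1.32 ± 0.355 CPM per kb in Grhl3 KO and 1.003 ± 0.686 in wild type. Ednra exceeded Ednrb in 3 of 5 libraries of each group, and the receptors could not be ranked beyond their spread. Their ratio ran from 0.586 to 1.77 in Grhl3 KO and from 0.553 to 3.67 in wild type. Edn3, at 0.0418 ± 0.0287 CPM per kb in Grhl3 KO and 0.0451 ± 0.0202 in wild type, was below Ednrb in all 10 libraries.

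**Figure D2:**
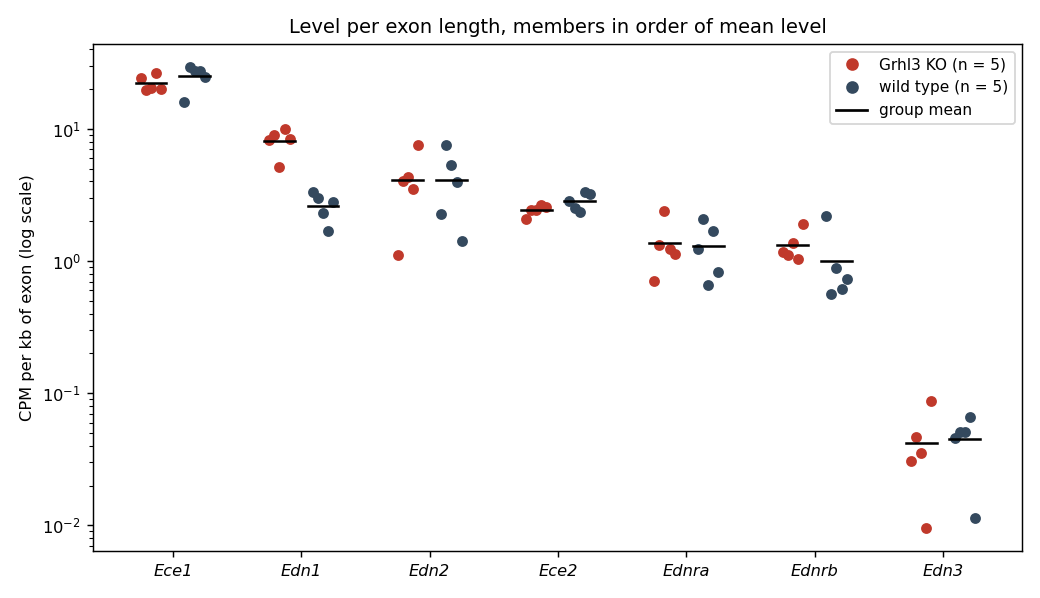
Level per exon length (CPM per kb, log axis) of the 7 genes in each Grhl3 KO and wild-type library (n = 5 each), ordered by mean level, with a line at each group mean. Ece1 lies between 15.9 and 29.4 CPM per kb, Edn3 under 0.09, and Edn1 lies above Edn2 in every Grhl3 KO library.

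Ednra, the receptor through which endothelin-1 contracts smooth muscle, stood at 3.84, 7.30, 13.2, 6.70 and 6.15 CPM in Grhl3 KO libraries 1026, 1027, 1035, 1036 and 1043. It stood at 6.70, 11.4, 3.64, 9.22 and 4.57 CPM in wild-type libraries 1028, 1048, 1528, 1555 and 1561. The groups overlapped over most of their range. The log2 fold change was 0.073 (SE 0.37, 95% limits −0.75 to 0.89, edgeR adjusted p = 0.987). It was −0.27 among libraries numbered 10xx, and −0.24 without Grhl3 KO 1035, the library with the highest Ednra.

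Ednrb encodes the receptor that binds all 3 endothelins, clears them from the circulation through endothelial cells and is required by neural crest cells. It stood at 5.03, 4.74, 5.81, 4.41 and 8.18 CPM in Grhl3 KO libraries 1026, 1027, 1035, 1036 and 1043. Wild-type mice 1028, 1048, 1528, 1555 and 1561 had 9.43, 2.42, 3.80, 2.64 and 3.11 CPM. Every Grhl3 KO library was thus above 4 of the 5 wild-type libraries and below wild type 1028. The log2 fold change was 0.39 (SE 0.38, 95% limits −0.44 to 1.22, edgeR adjusted p = 0.896). Leaving out wild type 1028 moved it to 0.90 (edgeR adjusted p = 0.312), while among libraries numbered 10xx, where wild type 1028 is 1 of 2 wild-type libraries, it was −0.08.

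Wild type 1028 also held the highest sum of any library for some of the cell marker lists. Its 12 endothelial genes summed to 255.6 CPM, with Grhl3 KO 1043 next at 222.6 CPM. Its 10 suprabasal keratinocyte genes summed to 72270 CPM, with Grhl3 KO 1043 next at 37300 CPM. Its leukocyte genes summed to 199.5 CPM, with Grhl3 KO 1035 next at 193.2 CPM. Whether any of these lists bears on the Ednrb value was not tested. In bulk tissue, fewer cells of a type and less RNA per cell cannot be told apart.

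Ece1, the converting enzyme that acts on big endothelin-1 at the cell surface, stood at 127.7, 103.6, 108.8, 139.4 and 106.6 CPM in Grhl3 KO libraries 1026, 1027, 1035, 1036 and 1043. It stood at 84.4, 155.7, 144.2, 145.7 and 131.9 CPM in wild-type libraries 1028, 1048, 1528, 1555 and 1561. Grhl3 KO 1027, 1035 and 1043 and wild type 1028 formed the low end, and the groups overlapped. The log2 fold change was −0.18 (SE 0.16, 95% limits −0.52 to 0.17, edgeR adjusted p = 0.886). Among libraries numbered 10xx it was −0.033, close to no difference. Ece1 lies 2.36 Mb from Grhl3 on chromosome 4 by gene midpoints, and Edn2 15.4 Mb from it on the same chromosome.

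Ece2, whose enzyme works at acidic pH inside secretory vesicles, stood at 10.6, 12.5, 12.5, 13.7 and 13.0 CPM in Grhl3 KO libraries 1026, 1027, 1035, 1036 and 1043. Wild-type mice 1028, 1048, 1528, 1555 and 1561 had 14.7, 12.8, 12.1, 17.1 and 16.6 CPM. Of all 7 genes it varied least within groups, with an SD of 9.08% of the mean in Grhl3 KO and 15.2% in wild type. The log2 fold change was −0.23 (SE 0.13, 95% limits −0.52 to 0.05, edgeR adjusted p = 0.775). Among libraries numbered 10xx it was −0.14. Per kb, Ece1 exceeded Ece2 by 7.89 to 11.6 times in Grhl3 KO and by 5.55 to 11.7 times in wild type. These ratios carry the uncertainty of the Ece2 count.

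Among the 6 members tested, 1 was called at an adjusted p under 0.05, and this was Edn1, higher in Grhl3 KO, on which the set had been built. Of all genes tested 0.0801% were called, 0.0291% as higher and 0.051% as lower in Grhl3 KO. Of the other 5 tested members 0 were called by edgeR, 0 had an unadjusted p under 0.05, and 0 were called by DESeq2 or limma voom. Their fitted values were higher in Grhl3 KO for 2 and lower for 3, with a median log2 fold change of −0.006, beside −0.001 over all genes tested. The Edn1 call itself ended in edgeR without Grhl3 KO 1027, 1036 or 1043 or without wild type 1528, 1555 or 1561, each left out alone, and in limma voom. It also ended without wild type 1528 and 1555 together, among libraries numbered 10xx, and with the number series as a covariate.

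**Figure D3:**
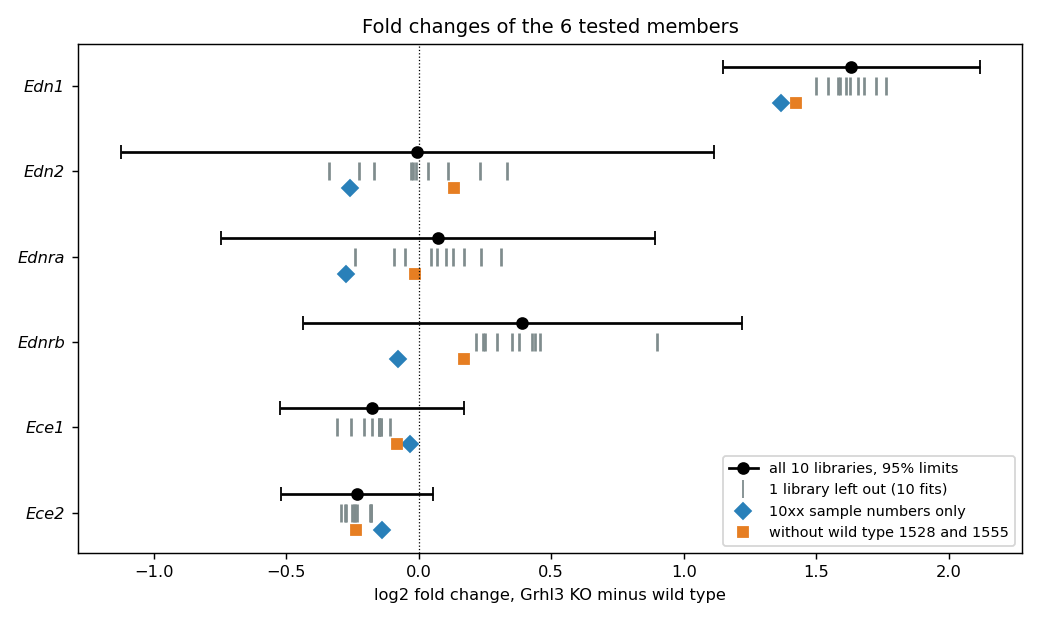
Log2 fold change, Grhl3 KO minus wild type, of the 6 tested members with 95% limits (black), with 1 library left out at a time (grey ticks), in the 10xx sample numbers only (blue) and without wild type 1528 and 1555 (orange). Edn1 stays between 1.37 and 1.76, and the other genes lie around 0, with Ednrb at 0.90 when wild type 1028 is left out.

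Whether the members varied together from mouse to mouse was examined on log2 CPM after subtracting each group's mean, which removes the genotype difference. Ednrb and Ece1 went in opposite directions over the 10 libraries (Pearson r = −0.881, exact within-group permutation p = 0.0153; Spearman rho = −0.794, exact permutation p = 0.0126). Over the 15 pairs of tested members this did not pass adjustment (Benjamini-Hochberg adjusted permutation p = 0.229 for Pearson and 0.189 for Spearman). Without wild type 1028 and Grhl3 KO 1043, the libraries farthest from the median of Ednrb, r was −0.535, so the relation rests largely on them. For the other 14 pairs r ran from −0.356 to 0.499 and the adjusted permutation p was at least 0.972. For Edn1 with Ednra, r was −0.356 over all 10 libraries but 0.664 without Grhl3 KO 1035 and wild type 1555, and for Edn1 with Ednrb it was 0.262.

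**Figure D4:**
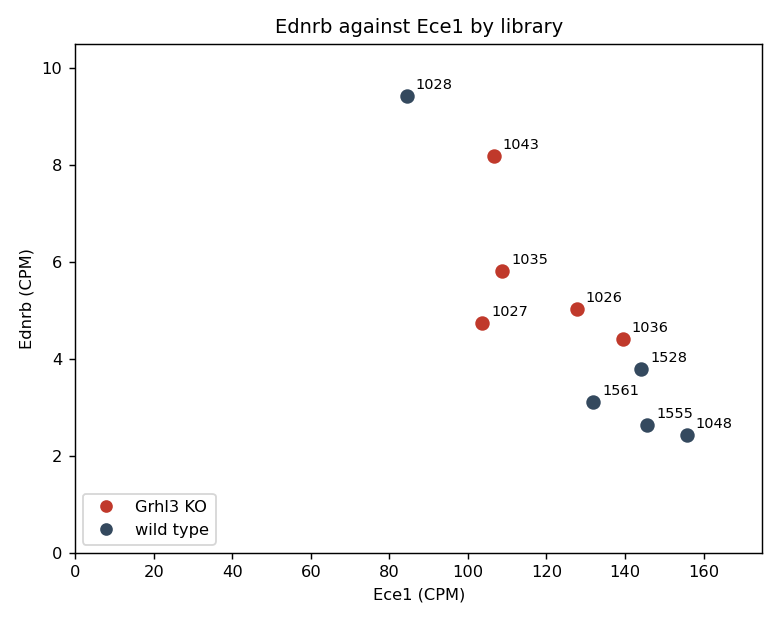
Ednrb against Ece1, both in CPM, in each Grhl3 KO and wild-type library, labelled by sample number. Wild type 1028 has the highest Ednrb, 9.43 CPM, and the lowest Ece1, 84.4 CPM, and wild type 1048 the lowest Ednrb, 2.42 CPM, and the highest Ece1, 155.7 CPM.

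For each tested member, the genes with the most similar course over the 10 libraries were sought among 12585 genes with a mean of at least 1 CPM, by Pearson's r of the same group-centred values. They are the highest of many values and are given as a description. For Edn1 they were Scoc (r = 0.929), Chtop (0.919), Ogdh (0.910), Npr3 (0.906) and Aspscr1 (0.896). Spearman's rho was lower, at 0.879, 0.733, 0.697, 0.879 and 0.794 in the same order. Npr3, which encodes the clearance receptor for natriuretic peptides, averaged 3.38 CPM in Grhl3 KO mice, against 3.35 CPM in wild-type mice. None of these 5 genes was called between the groups, the edgeR adjusted p being at least 0.698. Beside Edn2 stood Bhlhb9 (0.921), Xrcc4 (0.873) and Map3k1 (0.866).

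The genes most like Ednra were Rps6ka3 (0.930), Usp34 (0.927) and Arel1 (0.890), and those most like Ednrb were Zfp623 (0.948), Arhgap29 (0.929) and Kcnk7 (0.924). By rank the genes beside Ednrb were less alike, with a Spearman rho of 0.830 for Zfp623, 0.794 for Arhgap29 and 0.624 for Kcnk7. With Ece1 went Tctn1 (0.976), Bcr (0.955) and Zfand4 (0.954), and with Ece2 went Sh3bgrl3 (0.925), Hr (0.892) and Zfp960 (0.890). No gene appeared beside more than 1 member.

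Around the members, 101 genes in 6 lists were followed from proteases that trim the precursor to genes induced by the receptors. In edgeR's test, of the 86 that were tested, 0 were called in either direction (0.0801% of all genes), 10 had an unadjusted p under 0.05 (7.16% of all genes) and 4 separated the groups (1.35% of all genes). DESeq2 called 3 of them, Ereg, Jund and Prkcd, but it also called far more genes than edgeR, 119 of all 13731 tested. Limma voom called 0 of the 86, and 1 of all genes. The median log2 fold change of the 86 was 0.013.

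Of the proteases that process or clear endothelins, 7 of 11 were tested and 0 passed in either direction. Furin, the protease that frees big endothelin from its precursor, was at 205 ± 21.7 CPM in Grhl3 KO mice, against 203 ± 44.8 CPM in wild-type mice (SD, n = 5 each). Its relative Pcsk7 was at 50.0 ± 3.78 CPM in Grhl3 KO mice, against 42.4 ± 3.59 CPM in wild-type mice (log2 fold change 0.24, edgeR adjusted p = 0.574), and Pcsk6 at 19.5 ± 8.13 CPM in Grhl3 KO mice, against 33.6 ± 15.05 CPM in wild-type mice (−0.78, edgeR adjusted p = 0.697). Mme, encoding neprilysin, which degrades endothelins, was too low to be tested. It stood at 1.13 CPM in Grhl3 KO 1043 and lay between 0.0394 and 0.288 CPM in the 4 remaining Grhl3 KO mice, against 0 to 0.283 CPM in the wild-type libraries.

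The cytokines and hormones known to induce Edn1 had 1 of 8 tested genes higher in the fit and 7 lower, with 0 past the test. Tnf was at 8.20 ± 2.96 CPM in Grhl3 KO mice, against 11.3 ± 3.88 CPM in wild-type mice (log2 fold change −0.46, edgeR adjusted p = 0.795). Tgfb3, encoding a transforming growth factor, was at 9.38 ± 4.13 CPM in Grhl3 KO mice, against 16.4 ± 13.8 CPM in wild-type mice (−0.81, edgeR adjusted p = 0.813). The wild-type mean of Tgfb3 holds 39.55 CPM in wild type 1528, and without wild type 1528 and 1555 the log2 fold change was 0.13. Vegfa, the vascular growth factor, was at 275 ± 27.9 CPM in Grhl3 KO mice, against 322 ± 117 CPM in wild-type mice (−0.23, edgeR adjusted p = 0.896), and at 0.22 among libraries numbered 10xx.

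Among 18 transcription factors listed by role as regulators of Edn1, 11 were higher in the fit and 7 lower, with 0 past the test. The list was not split into activators and repressors, so these counts give no direction for Edn1. Jund, a subunit of AP-1, stood at 247.6 to 340.8 CPM in the Grhl3 KO mice, against 192.9 to 233 CPM in the wild-type libraries, with no overlap (log2 fold change 0.53, SE 0.10, edgeR adjusted p = 0.146). Rela, a subunit of NF-kappaB, stood at 87.2 to 96.0 CPM in Grhl3 KO mice, against 67.7 to 82.9 CPM in wild-type mice, also with no overlap (0.29, SE 0.08, edgeR adjusted p = 0.377). Hif1a, the oxygen-regulated factor, was at 1383 ± 174 CPM in Grhl3 KO mice, against 1089 ± 370 CPM in wild-type mice (0.34, edgeR adjusted p = 0.795).

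Of 24 genes of receptor signalling 16 were higher in the fit and 8 lower, and 0 passed. Prkcd, encoding a protein kinase C, stood at 103 to 124 CPM in Grhl3 KO mice, against 80.6 to 96.3 CPM in wild-type mice (log2 fold change 0.34, SE 0.09, edgeR adjusted p = 0.322). The groups did not overlap. Rock2, encoding a kinase of the contractile response, was at 115 ± 11.3 CPM in Grhl3 KO mice, against 98.7 ± 8.88 CPM in wild-type mice (0.22, edgeR adjusted p = 0.668). Rhoa, which encodes the small GTPase upstream of Rock2, was at 345 ± 29.3 CPM in Grhl3 KO mice, against 367 ± 31.0 CPM in wild-type mice (−0.09, edgeR adjusted p = 0.908).

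Among 10 genes that endothelin signalling is known to induce, 4 were higher in the fit and 6 lower, and 0 passed. Ereg, encoding the EGF receptor ligand epiregulin, stood at 56.0 to 92.8 CPM in the Grhl3 KO mice, against 33.4 to 47.7 CPM in the wild-type libraries (log2 fold change 0.88, SE 0.15, edgeR adjusted p = 0.0834). These ranges did not overlap. Hbegf, encoding a further EGF receptor ligand, was at 158 ± 48.2 CPM in Grhl3 KO mice, against 200 ± 70.3 CPM in wild-type mice (−0.34, edgeR adjusted p = 0.842).

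The other vasoactive peptides and their receptors had 19 of 29 genes tested, 9 higher and 10 lower in the fit, with 0 past the test. Adm2, encoding a relative of adrenomedullin, was at 5.76 ± 1.88 CPM in Grhl3 KO mice, against 11.1 ± 4.04 CPM in wild-type mice (log2 fold change −0.94, edgeR adjusted p = 0.466). Aplnr, encoding the apelin receptor of endothelial cells, was at 5.54 ± 1.89 CPM in Grhl3 KO mice, against 3.09 ± 0.883 CPM in wild-type mice (0.84, edgeR adjusted p = 0.562). Adm, encoding the vasodilator adrenomedullin, was at 62.4 ± 19.0 CPM in Grhl3 KO mice, against 65.1 ± 30.9 CPM in wild-type mice (−0.06, edgeR adjusted p = 0.987).

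**Figure D5:**
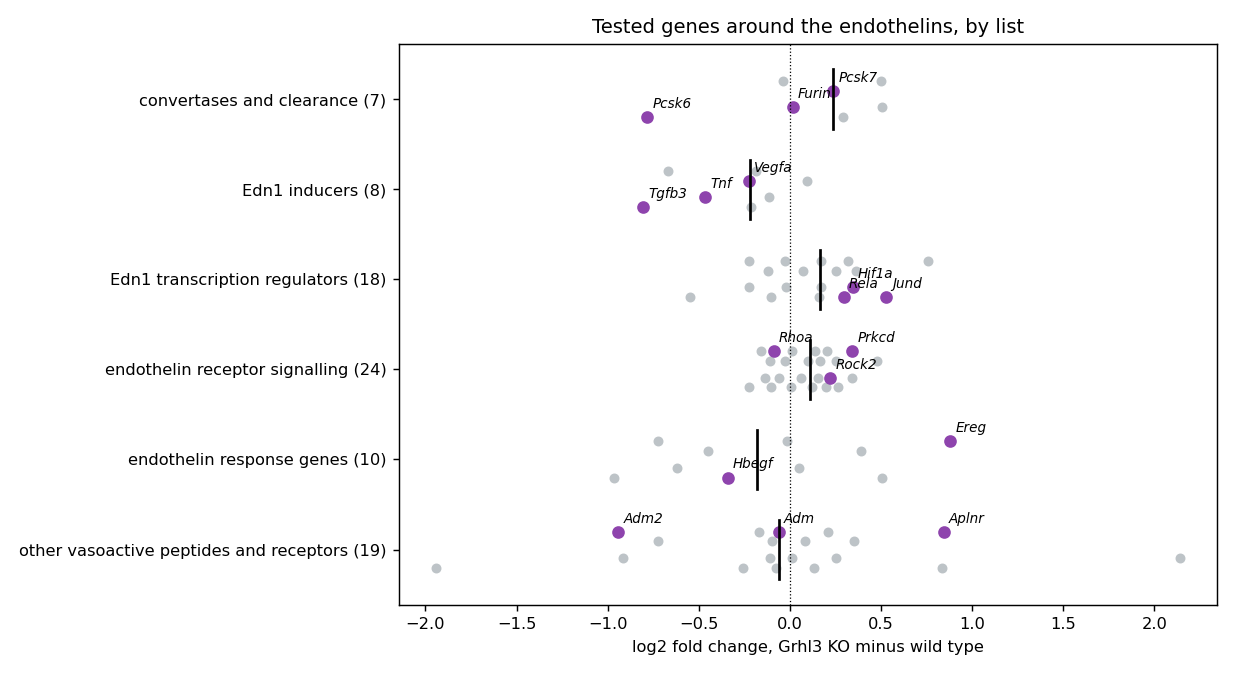
Log2 fold change, Grhl3 KO minus wild type, of each tested gene in the 6 lists around the endothelins, with the genes named in the text in purple and a line at the median of each list. The medians lie between −0.22 and 0.24, and Ereg, at 0.88, had the smallest adjusted p of all genes shown, 0.0834.

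Cell type markers were summed per library to set beside Edn1. The 12 endothelial genes, all tested and 0 of them called, summed to 143 to 223 CPM in Grhl3 KO mice, against 111 to 256 CPM in wild-type mice, with Pecam1 and Eng the most abundant. The 8 basal keratinocyte genes, led by Krt14 and Krt5, summed to 27780 to 36780 CPM in Grhl3 KO mice, against 30950 to 40410 CPM in wild-type mice. The 10 suprabasal genes, led by Krt13 and Krt4, summed to 17000 to 37300 CPM in Grhl3 KO mice, against 9764 to 72270 CPM in wild-type mice. As the lists were chosen with earlier results of these data known, counts of their genes that differ are a description only. In the fit 2 of the 10 suprabasal genes, Krt1 and Krt10, were higher in Grhl3 KO and 8 were lower. Of the 10, 6 had an unadjusted p under 0.05 in edgeR, beside 7.16% of all genes. Of these 1 passed after adjustment, beside 0.0801% of all genes: Krt1, a keratin of cornifying epidermis, at 200 ± 97.7 CPM in Grhl3 KO mice, against 24.2 ± 11.2 CPM in wild-type mice (edgeR adjusted p = 0.0358). The Krt1 call ended in limma voom, with the number series as a covariate and among libraries numbered 10xx, where 0 genes were called as higher. It also ended without wild type 1528 and 1555 together. Leaving out Grhl3 KO 1027, 1036 or 1043 or wild type 1528 or 1555 alone ended it too. The other 5 with an unadjusted p under 0.05 were Krt10, higher in the fit, and Sprr3, Cnfn, Krt78 and Ivl, lower in the fit, with edgeR adjusted p of at least 0.5037. Both groups thus carried the keratins of oesophageal squamous epithelium at high level, and no library of either group lacked endothelial markers.

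Sums of the other marker lists also overlapped between the groups. Such sums are weighted to their most abundant genes and say little of the rest. Over all libraries Notch3 averaged 116 CPM beside 12.6 CPM for the pericyte gene Pdgfrb, and Acta2 216 CPM beside 15.9 CPM for the smooth muscle gene Myh11. Smooth muscle genes, led by Acta2 and Smtn, summed to 271 to 739 CPM in Grhl3 KO mice, against 256 to 681 CPM in wild-type mice. Pericyte genes, led by Notch3 and Rgs5, summed to 178 to 297 CPM in Grhl3 KO mice, against 116 to 258 CPM in wild-type mice. Fibroblast genes, led by Col3a1 and Col1a1, summed to 227 to 705 CPM in Grhl3 KO mice, against 298 to 509 CPM in wild-type mice. Leukocyte genes, led by Lyz2 and Cd68, summed to 137 to 193 CPM in Grhl3 KO mice, against 142 to 200 CPM in wild-type mice. Skeletal muscle genes, led by Acta1 and Myh1, summed to 681 to 4830 CPM in Grhl3 KO mice, against 1104 to 2462 CPM in wild-type mice. Among the smooth muscle genes 1 of 8 was higher in the fit and 7 lower, and among the skeletal muscle genes 9 of 9 were higher. Of these 5 lists no gene was called in edgeR, and their part in the level of Edn1 was not tested.

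Melanocytes and enteric neurons, which arise from neural crest, were also checked by their markers. Of 6 melanocyte genes Tyr and Tyrp1 were at 0 in all 10 libraries, and the list, led by Mitf and Pmel, summed to 1.57 to 2.62 CPM in Grhl3 KO mice, against 1.73 to 2.54 CPM in wild-type mice. Of 7 enteric neuron genes Chat was at 0 in all libraries, and Tubb3 and Nos1 were the most abundant. Their sum was 76.4 to 146 CPM in Grhl3 KO mice, against 50.5 to 174 CPM in wild-type mice. Mast cell genes, led by Kit and Tpsb2, summed to 5.85 to 11.5 CPM in Grhl3 KO mice, against 6.12 to 10.53 CPM in wild-type mice.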

How the data were processed

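RNA of 5 Grhl3 KO and 5 wild-type mice was sequenced from libraries of a strand-preserving poly(A) kit, per the labels' protocols. The deposited counts are whole reads per gene without normalization. Per the submitters' processing notes they were made with featureCounts against GRCm38; aligner, versions and annotation release: not given in the sources used here. Columns were joined to samples by sample number, with 0 other per-sample columns and 0 rows that name no gene. Genes were kept with filterByExpr of edgeR 4.0.16 in R 4.3.3 (minimum count 10, minimum total 15), leaving 13731, scaled by TMM and compared by the quasi-likelihood F-test of edgeR (robust dispersions), with Benjamini-Hochberg adjustment over all genes and a call at 0.05. A positive log2 fold change means higher in Grhl3 KO; SEs follow from the F statistic. Log2 CPM values for correlations carry a prior count of 2. Exon lengths, positions and transcripts come from GENCODE M21 (GRCm38), near-identical copies from blastn 2.17.0. Members and lists were chosen with earlier results of these data known. The genes named are the members, the 2 of smallest p and the most abundant gene of each pathway list, the 2 most abundant of each marker list, and the 5 (Edn1) or 3 genes most like each member; Mme, Eef1akmt4, Gm49333, Krt1, Krt10, Sprr3, Cnfn, Krt78, Ivl, Tyr, Tyrp1 and Chat were named outside this rule, after their values were seen. Some genes that the rule names, and 1 marker list, are not reported here. Alternatives were DESeq2 1.42.0, limma 3.58.1 voom, other scalings and filters, dispersions that were not robust, left-out libraries and the number series. On simulated counts of 13731 genes for this comparison, with 200 genes changed, edgeR found 61% of 2-fold and 94% of 4-fold changes with 5 false calls. The 95% limits come from the edgeR fit and take in the spread between mice.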

Additional observations from a re-analysis of the deposited data

Results flagged for a closer look

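A library far from the other 4 of its group was sought in 50 groups of CPM values, those of the members and named pathway genes in each genotype, and 4 were found; chance flags about 1 in 20 groups. Ednrb stood at 9.43 CPM in wild type 1028, against 2.42 to 3.80 CPM in the other wild-type libraries. Jund was at 233 CPM in wild type 1028, against 192.9 to 204.3 CPM in the other wild-type libraries. Rela was at 96.0 CPM in Grhl3 KO 1027, against 87.2 to 89.4 CPM in the 4 remaining Grhl3 KO libraries. Adm2 was at 9.02 CPM in Grhl3 KO 1035, against 4.29 to 5.43 CPM in the 4 remaining Grhl3 KO libraries.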

How the results depend on the processing

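All 20 alternatives left Edn1 higher in Grhl3 KO (log2 fold change 1.37 to 1.76). They left Ece1 (−0.31 to −0.03) and Ece2 (−0.29 to −0.14) lower in the fit, each by least in the 10xx series only. Counts of called genes were less stable. Over all genes, 11 were called in the reported fit, 119 by DESeq2, 1 by limma voom, 7 with no filter, and 1 each with the number series as a covariate, in the 10xx series only and without wild type 1528 and 1555; with 1 library left out, 1 to 16 were called. Of the members 1 was called, 0 by limma voom, with the series as a covariate, in the 10xx series only and without wild type 1528 and 1555, and 0 to 1 with 1 library left out, the call ending without Grhl3 KO 1027, 1036 or 1043 or wild type 1528, 1555 or 1561. Of the pathway genes DESeq2 called 3 and 0 were called with any 1 library left out. The cause of these changes was not tested.

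The sign changed for genes whose difference did not pass the test. With the series as a covariate and in the 10xx series only, the log2 fold change was −0.28 and −0.27 for Ednra, −0.0785 and −0.0768 for Ednrb, 0.0503 and 0.0517 for Tnf, 0.22 and 0.22 for Vegfa, and 0.0343 and 0.0359 for Hbegf. Without wild type 1528 and 1555 it was 0.13 for Edn2, −0.015 for Ednra, 0.13 for Tgfb3 and 0.21 for Vegfa. It was 0.0911 for Edn2 and 0.0289 for Adm in limma voom, 0.001 for Edn2 with no filter, and −1e-04 for Furin with upper-quartile scaling. With 1 library left out it ran from −0.34 to 0.33 for Edn2, −0.24 to 0.31 for Ednra, −0.10 to 0.11 for Furin and −0.25 to 0.15 for Adm. The genes most like each member were the same with a prior count of 0.5. No paired analysis was possible because the groups share no sample numbers. Edn3, at 1 to 6 counts per library, is limited by depth, and Edn2 rests on 26 to 217 counts per library.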
